A study of Mus musculus with 18 samples.

Results

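The 6 genes described here, Prdm1, Prdm14, Tfap2c, Nanos3, Dnd1 and Kit, are factors of germ cell specification in the mouse. They were taken by gene symbol from the deposited expression table, where each symbol occurs once, and are 6 of 25909 genes with an identifier. The data are 18 RNA-seq libraries (polyA selection) from mouse cells in culture (strain label B6CBA/129), 3 in each of 6 groups. The SGET embryonic stem cells, kept in 2i/L on gelatin, carry reporters of Stella (Dppa3) and Esg1 (Dppa5a), and were Esrrb KO or WT. Esrrb KO epiblast-like cells (EpiLC) and WT EpiLC were grown on fibronectin with activin A at 20 ng/ml plus bFGF at 12.5 ng/ml, and were not sorted. Esrrb KO and WT primordial germ cell-like cells (PGCLC) were made from EpiLC in a medium with both BMP4 and BMP8a at 500 ng/ml, SCF at 100 ng/ml, EGF at 50 ng/ml and LIF at 1000 U/ml, and were sorted as SG+ETlow after 3 days or after 5 days. The later libraries carry day 6 in their descriptions and day 5 in their titles, and are called day 5 here. The KO libraries carry the names A5, B1 and A2, taken here as KO lines, and the WT libraries the numbers 1 to 3. Nothing in the labels says which part of Esrrb was removed, or whether the WT libraries came from separate cultures, so p-values measure the spread between these libraries, which may be technical for WT. In bulk RNA, fewer cells that express a gene and less of its RNA per cell cannot be told apart.

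Germ cells of the mouse arise from epiblast cells that receive BMP and WNT signals. A small set of transcription factors, PRDM1 (BLIMP1), PRDM14 and AP-2 gamma (Tfap2c), then turns off the somatic program and turns the germ cell program on. The RNA-binding proteins NANOS3 and DND1 protect the young germ cells and act on messenger RNAs, and the receptor tyrosine kinase KIT passes on the survival signal of stem cell factor (SCF). ESRRB, the gene named as knocked out, is a nuclear receptor without a known natural ligand, found in naive pluripotent cells and in early germ cells.

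The libraries held 3032965 to 5286330 counts (median 4246222). Levels are CPM, counts relative to library size scaled by TMM, and are given as mean ± SD of 3 libraries. Changes are log2 fold changes ± SE from a single edgeR quasi-likelihood fit of the 18 libraries (n = 3 against 3). A gene is said to have risen or fallen where its Benjamini-Hochberg adjusted p, over 12856 tested genes, was under 0.05. The chi-square per degree of freedom between libraries of a group, near 1 where only counting error separates them, was 1.12 to 1.84 for WT pairs and 4.0 to 34.6 for KO pairs. Esrrb itself held 29, 18 and 167 counts in KO EpiLC (lines A5, B1 and A2), against 127, 113 and 79 in WT EpiLC. The KO A2 EpiLC library thus held more Esrrb counts than any WT EpiLC library. Its median expressed gene of chromosome 1 lay 0.32 (log2) above the WT mean. The A2 libraries of day 3 (0.31) and day 5 (0.32) had a like shift. Why Esrrb counts of the KO A2 EpiLC library were high was not tested. Esrrb averaged 139.5 ± 41.6 CPM in KO and 609.0 ± 19.3 CPM in WT at day 3 (-2.13 ± 0.43, adjusted p = 0.00554). At day 5 the means were 157.5 ± 38.2 CPM in KO and 583.3 ± 18.4 CPM in WT (-1.89 ± 0.42, adjusted p = 0.00598).

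The 3 lines below give the 250 bases ahead of the transcription start of Kit, Nanos3 and Prdm1. They are read on each gene's own strand from 5′ to 3′ (RefSeq, GRCm38.p6). The promoter reference used here held windows for these 3 factors and none for Prdm14, Tfap2c and Dnd1. Kit lies at chr5:75574737-75574986 (plus strand), Nanos3 at chr8:84176553-84176802 (minus strand) and Prdm1 at chr10:44458749-44458998 (minus strand). Capitals mark matches to the AP-2 motif GCCNNNGGC.
Kit: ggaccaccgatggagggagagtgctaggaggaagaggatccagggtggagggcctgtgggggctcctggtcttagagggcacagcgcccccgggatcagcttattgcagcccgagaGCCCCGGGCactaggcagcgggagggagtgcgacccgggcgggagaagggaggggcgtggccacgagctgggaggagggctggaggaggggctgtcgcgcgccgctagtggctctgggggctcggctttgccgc
Nanos3: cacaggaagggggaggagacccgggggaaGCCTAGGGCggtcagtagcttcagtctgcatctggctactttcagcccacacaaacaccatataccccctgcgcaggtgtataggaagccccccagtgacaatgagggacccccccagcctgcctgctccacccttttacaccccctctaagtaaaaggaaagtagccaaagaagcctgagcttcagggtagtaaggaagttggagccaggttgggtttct
Prdm1: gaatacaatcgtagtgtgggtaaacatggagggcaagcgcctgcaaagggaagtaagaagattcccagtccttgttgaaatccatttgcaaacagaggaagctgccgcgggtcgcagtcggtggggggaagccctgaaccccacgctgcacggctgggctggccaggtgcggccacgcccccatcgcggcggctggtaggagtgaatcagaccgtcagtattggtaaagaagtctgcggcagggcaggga

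The windows differ in base composition. GC content was 70.8% for Kit, 56.4% for Nanos3 and 59.2% for Prdm1, against a median of 52% over 27025 promoter windows of this length, and CG dinucleotides numbered 17, 3 and 15, against a median of 6. The AP-2 match begins 134 bases ahead of the Kit start and 221 bases ahead of the Nanos3 start. It occurs in 13.6% of all windows, read on both strands. The SP/KLF letters GGGCGG also occur in the Kit and Nanos3 windows and in 32.9% of all windows, and in Nanos3 this match overlaps the AP-2 match. None of the 3 windows holds the ESRRB motif TNAAGGTCA (1.14% of all windows), the PRDM14 motif GGTCTCTAA (0.244%), the PRDM1 motif AGNGAAAG (7.23%), the LEF1 motif CTTTGA (14%), the T-box motif AGGTGTGA (1.14%) or the octamer ATGCAAAT (1.61%), and Prdm1 holds none of the 8. A match is a run of letters and not a measured binding site. The gene models of GENCODE M21 (GRCm38) place Prdm1 at chr10:44437177-44528501 (minus), Prdm14 at chr1:13113457-13127163 (minus), Tfap2c at chr2:172549593-172558622 (plus), Nanos3 at chr8:84173731-84185217 (minus), Dnd1 at chr18:36763671-36766214 (minus) and Kit at chr5:75574916-75656722 (plus). The starts of these models differ from those of RefSeq. The Nanos3 and Prdm1 models reach further 5′ than the windows. The Kit model begins inside its window, so the last bases printed for Kit lie within that model.

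**Figure D1:**
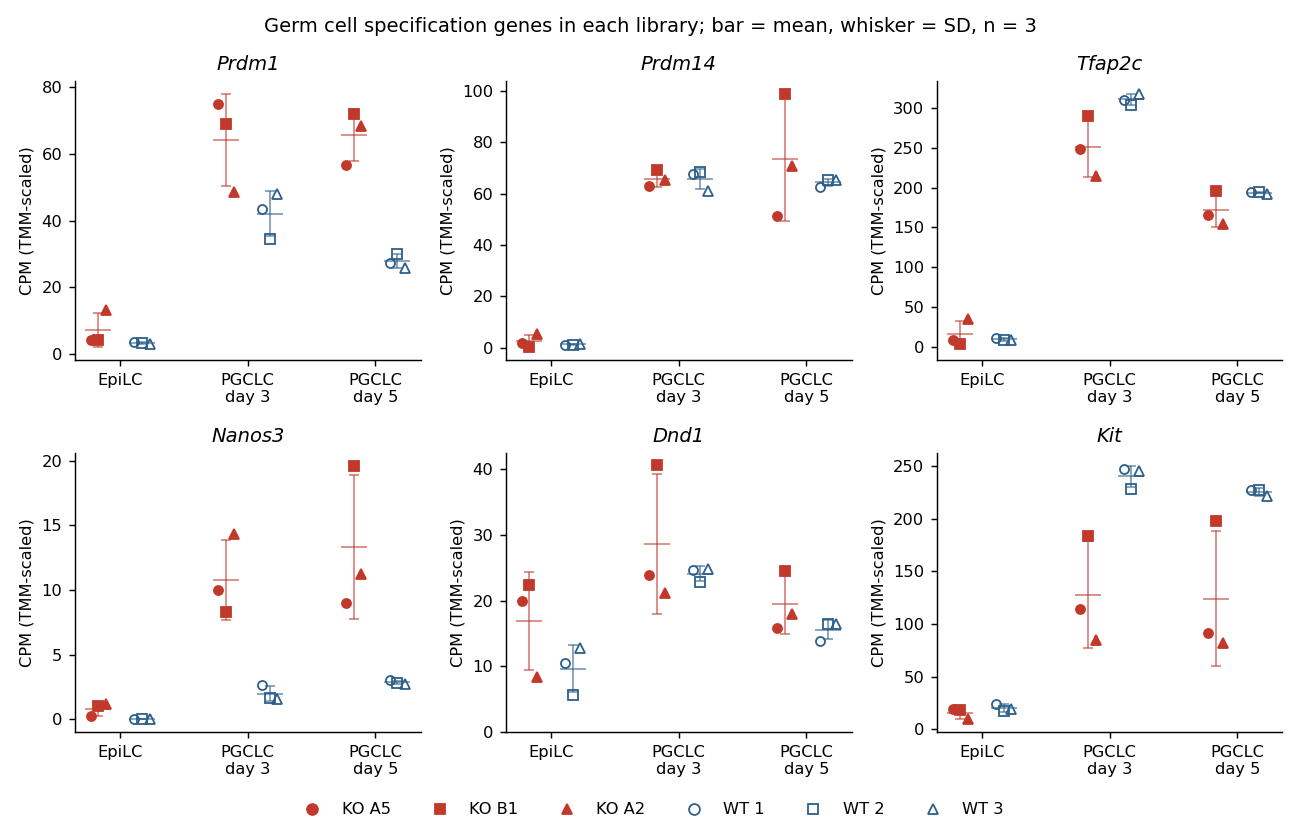
CPM of the 6 genes in each library at each stage, with KO in red on the left and WT in blue on the right. Symbols mark the library, the wide bar is the mean and the whisker the SD (n = 3). Nanos3 lies higher and Kit lower in every KO PGCLC library than in any WT library of the same day. The share of all tested genes that separate in this way was not counted.

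All 6 genes rose between WT EpiLC and WT day 3 PGCLC (29% of all tested genes rose and 28.5% fell in this comparison), with a median log2 fold change of 4.35, against 0.00 over all tested genes. In KO cells 5 of 6 rose (20.6% of all tested genes rose and 21.4% fell), with a median of 3.44, against -0.03 over all tested genes. The exception was Dnd1, with an adjusted p of 0.0748 (it passed at 0.0200 with the KO line as a block, and also without the KO B1 EpiLC library or the KO A2 day 3 library). These cells differ in sorting as well as in stage, since EpiLC were unsorted, and sorting and stage cannot be told apart here.

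Between day 3 and day 5 none of the 6 passed the test in either genotype. In KO cells 0.366% of all tested genes rose and 0.187% fell, and in WT cells 0.288% rose and 0.482% fell. At an unadjusted p under 0.05, 0 of 6 were reached in KO and 1 of 6 in WT (Prdm1), and DESeq2 also called 0 in both. Some of these changes passed in other fits. Tfap2c in KO, at -0.65 to -0.43 over all settings, passed without line A2 (adjusted p = 0.00171). In WT, Prdm1 and Tfap2c passed without line A2, and Prdm1, Tfap2c and Dnd1 passed in a fit of the WT groups alone.

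Between genotypes, Nanos3 was higher in KO at every stage and Prdm1 at day 5. The EpiLC call of Nanos3 rested on 10 KO counts against 0 WT counts and was lost in 6 of 11 alternatives. Kit lay below all WT libraries in KO PGCLC without passing the test. How many of all tested genes separate in this way was not counted, so separation of libraries is description only here and below. In EpiLC 1 of 6 genes was higher and 0 lower in KO (6.93% of all tested genes were higher and 4.15% lower). At day 3 again 1 was higher and 0 lower (5% and 5.18% of all tested genes), and at day 5 there were 2 higher and 0 lower (9.83% and 7.62%). The median log2 fold change of the 6 was 0.87 in EpiLC, then 0.12 on day 3 and 0.26 on day 5, where all tested genes had 0.01 each time. The change of the KO effect itself between EpiLC and day 3 passed for 0 of 6 genes (higher for 2.96% and lower for 3.63% of all tested genes; 0 of 6 and 3038 of 12856 genes at an unadjusted p under 0.05), and its change between day 3 and day 5 for 0 of 6 (0% and 0% of all tested genes, with 561 of 12856 genes and 0 of 6 at an unadjusted p under 0.05). DESeq2 also called 0 of 6 in both, and called 11 genes in all in the second.

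**Figure D2:**
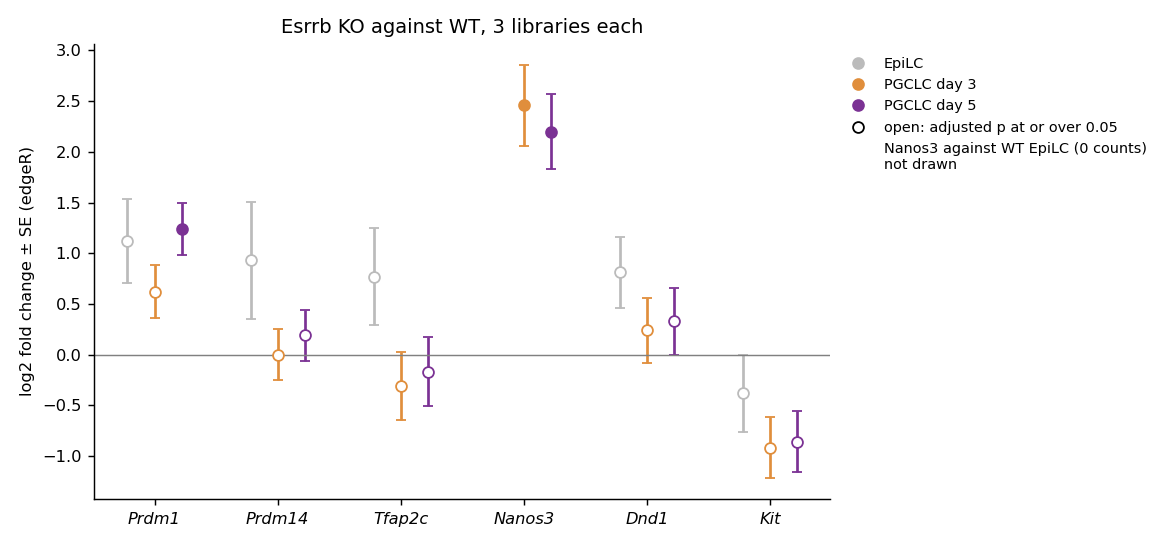
Log2 fold change of KO against WT (± SE, edgeR, n = 3 against 3) for each gene in EpiLC, at day 3 and at day 5; filled points passed an adjusted p of 0.05. Nanos3 at 2.46 and 2.20 and Prdm1 at 1.24 are the filled points, and Nanos3 in EpiLC is left out because WT EpiLC held no counts.

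Prdm1 encodes a zinc finger repressor that is among the earliest markers of the germ cell lineage and silences the mesoderm program in it. It was measured at 4.17, 4.03 and 13.1 CPM in KO EpiLC (lines A5, B1 and A2), against 3.67, 3.21 and 2.87 CPM in WT EpiLC. At day 3 it reached 74.9, 69.1 and 48.7 CPM in KO, against 43.5, 34.6 and 48.0 CPM in WT. At day 5 it stood at 56.8, 71.9 and 68.5 CPM in KO, against 27.3, 30.0 and 25.9 CPM in WT. The KO libraries lay above the WT libraries at all 3 stages, with narrow gaps in EpiLC (KO B1 at 4.03 CPM, WT 1 at 3.67 CPM) and at day 3 (KO A2 at 48.7 CPM, WT 3 at 48.0 CPM).

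Prdm1 was higher in KO at day 5 (65.7 ± 7.91 CPM in KO and 27.8 ± 2.11 CPM in WT, log2 fold change 1.24 ± 0.26, adjusted p = 0.00406), in each of the 12 other settings tried (adjusted p up to 0.0242). Neither EpiLC (1.12 ± 0.41, adjusted p = 0.0820) nor day 3 (0.62 ± 0.26, adjusted p = 0.149) passed. In EpiLC the log2 fold change was 0.33 without line A2, and it passed with DESeq2 and without KO A5 or KO B1 (adjusted p down to 0.0263). At day 3 line A2 was the lowest KO library, and the difference passed without the 3 libraries of that line (0.78, adjusted p = 3.92e-05). From EpiLC to day 3 Prdm1 rose in KO (64.3 ± 13.8 CPM at day 3 and 7.10 ± 5.19 CPM in EpiLC, log2 fold change 3.17 ± 0.31, adjusted p = 1.69e-06) and in WT (42.0 ± 6.77 and 3.25 ± 0.402 CPM, 3.68 ± 0.35, adjusted p = 4.45e-07). From day 3 to day 5 the estimate was 0.03 ± 0.26 in KO and -0.59 ± 0.27 in WT, and the difference between these changes did not pass (0.63 ± 0.37, adjusted p = 1).

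Prdm14 encodes the zinc finger protein that restores pluripotency genes in germ cells and lowers DNA methyltransferase and FGF receptor genes. KO EpiLC held 9, 2 and 22 counts (2.08, 0.504 and 5.24 CPM), against 5, 5 and 6 counts (1.31, 1.24 and 1.56 CPM) in WT EpiLC. Day 3 PGCLC had 63.0, 69.1 and 65.2 CPM in KO, against 67.6, 68.2 and 61.1 CPM in WT. Day 5 PGCLC had 51.1, 98.8 and 70.7 CPM in KO, against 62.7, 65.1 and 65.2 CPM in WT. The groups overlapped at every stage, and the highest KO library was 10.4 times the lowest in EpiLC, where counts were few, and 1.93 times at day 5.

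Its level did not differ between genotypes beyond that spread at day 3 (65.8 ± 3.11 CPM in KO and 65.6 ± 3.90 CPM in WT, log2 fold change 0.00 ± 0.25, adjusted p = 1) or at day 5 (73.5 ± 24.0 and 64.3 ± 1.41 CPM, 0.19 ± 0.25, adjusted p = 0.639). Prdm14 had the steepest rise of the 5 genes with counts in all EpiLC groups. It rose in KO by a log2 fold change of 4.63 ± 0.35 (adjusted p = 2.23e-07) and in WT by 5.55 ± 0.40 (adjusted p = 3.21e-08). The gene lies on chromosome 1, where the median expressed gene of line A2 was 0.31 to 0.32 higher (log2) than the WT mean at all 3 stages, against -0.04 to 0.04 in the other KO lines. Set against the median of its chromosome, the KO effect on Prdm14 was -0.13 at day 3 and 0.09 at day 5.

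Tfap2c encodes AP-2 gamma, which acts downstream of PRDM1 in germ cells and is also a trophoblast factor. KO EpiLC had 9.26, 4.29 and 35.2 CPM, against 11.5, 8.40 and 8.87 CPM in WT EpiLC. By day 3 Tfap2c stood at 248.7, 289.8 and 214.3 CPM in KO, against 310.0, 303.4 and 317.5 CPM in WT. By day 5 it stood at 166.1, 195.9 and 153.9 CPM in KO, against 194.1, 194.5 and 192.3 CPM in WT. All KO libraries were below all WT libraries at day 3, whereas at day 5 line B1 was level with WT.

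None of the KO differences in Tfap2c passed (EpiLC 0.77 ± 0.48, adjusted p = 0.301; day 3 -0.31 ± 0.34, adjusted p = 0.624; day 5 -0.17 ± 0.34, adjusted p = 0.777). In EpiLC the sign turned without line A2 (-0.48), and the difference passed without KO B1 (1.21, adjusted p = 0.0335). Tfap2c rose from EpiLC to day 3 in KO (251.0 ± 37.8 CPM at day 3 and 16.3 ± 16.6 CPM in EpiLC, 3.94 ± 0.41, adjusted p = 3.68e-06) and in WT (310.3 ± 7.08 and 9.60 ± 1.69 CPM, 5.01 ± 0.44, adjusted p = 2.81e-07). The change of -0.68 ± 0.34 from day 3 to day 5 in WT had 3 libraries at 192.3 to 194.5 CPM against 3 at 303.4 to 317.5 CPM, yet missed the threshold when the spread was estimated over all 18 libraries (adjusted p = 0.395). It passed (adjusted p = 1.90e-15) in a fit of the 6 WT libraries alone, whose spread comes from WT only.

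The EpiLC library of line A2 had the highest Prdm1, Prdm14 and Tfap2c of the 6 EpiLC libraries, at 403%, 382% and 367% of the WT mean. Its 10 trophoblast markers summed to 1376 CPM, against 93.5 and 208.8 CPM in the other KO EpiLC libraries and 56.3 to 64.5 CPM in WT EpiLC, with 8 to 9 of 10 markers detected in KO and 7 to 9 in WT, and Elf5 at 0 in all 6. Most of the A2 sum was the keratin genes Krt18 and Krt8, at 686.4 and 486.7 CPM, while Cdx2 reached at most 5.48 CPM in KO EpiLC. The 8 fibroblast and mesenchyme markers of the A2 library summed to 642.9 CPM, against 105.9 and 119.2 CPM in the other KO EpiLC libraries and 48.5 to 58.2 CPM in WT EpiLC, with Lum at 0 in all 6. Of this list, Dcn (2.25 ± 0.353 CPM in KO EpiLC and 7.75 ± 1.76 CPM in WT EpiLC) and Thy1 (12.7 ± 9.05 and 27.2 ± 2.81 CPM) went the other way. The 7 markers of formative epiblast in the A2 library had the lowest sum of the EpiLC libraries (1769 CPM, against 3512 and 4045 CPM in the other KO and 5221 to 5314 CPM in WT). All 7 were detected in each library. Its 8 markers of naive pluripotent cells, Esrrb among them, had the highest sum (407.4 CPM, against 92.5 and 170.9 CPM in the other KO and 164.0 to 202.6 CPM in WT). All 8 were detected in each library. Its 8 mesoderm markers summed to 55.7 CPM, against 10.3 and 15.1 CPM in the other KO and 8.87 to 10.4 CPM in WT. Of these 8, 6 to 7 were detected in KO and 4 to 7 in WT, with Mesp1 at 0 in all 6. Most of the A2 sum was Hand1, at 40.2 CPM, which is also among the trophoblast markers. Whether cells of other types were present, and their part in the EpiLC values of Prdm1, Prdm14 and Tfap2c, was not tested.

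Nanos3 encodes a zinc finger protein that binds RNA and keeps migrating germ cells from dying. KO EpiLC held 1, 4 and 5 counts (0.232, 1.01 and 1.19 CPM), against 0 counts in each of the 3 WT EpiLC libraries, which allows up to 3 counts over the group. At day 3 it was at 9.99, 8.27 and 14.3 CPM in KO (46, 25 and 56 counts), against 2.66, 1.69 and 1.59 CPM in WT (11, 9 and 7 counts). At day 5 it was at 9.03, 19.6 and 11.2 CPM in KO (38, 91 and 55 counts), against 3.01, 2.80 and 2.77 CPM in WT (15, 14 and 12 counts). Every KO library lay above every WT library of the same stage.

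Nanos3 was higher in KO at day 3 (10.8 ± 3.09 CPM in KO and 1.98 ± 0.587 CPM in WT, log2 fold change 2.46 ± 0.40, adjusted p = 0.00156) and at day 5 (13.3 ± 5.57 and 2.86 ± 0.131 CPM, 2.20 ± 0.37, adjusted p = 0.00111), and both calls held in each of the 12 other settings. From the summed counts alone the ratio was 5.64 at day 3 (95% counting interval 3.70 to 8.89) and 4.67 at day 5 (3.31 to 6.72). In EpiLC the 10 KO counts against 0 WT counts gave an adjusted p of 0.0276. Taking 3 counts over the group (0.256 CPM) for WT, the KO level was 3.12-fold higher, without counting error on the 10 KO counts. That EpiLC call was lost without WT 1, WT 2, WT 3 or KO A2, without all of line A2, and with limma-trend (adjusted p up to 0.138).

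From EpiLC to day 3 Nanos3 rose in KO (3.71 ± 0.46, adjusted p = 2.68e-05) and in WT (adjusted p = 0.000220). The rise in WT was 7.60-fold against the same floor, without counting error on the day 3 counts. Nanos3 lies on chromosome 8, where the median expressed gene of the KO libraries was 0.09 to 0.19 lower (log2) than the WT mean; the shift of Nanos3 had the opposite sign. Of 692 tested genes on chromosome 8 it ranked 2nd from the highest in EpiLC, 1st at day 3 and 11th at day 5 by KO log2 fold change.

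Dnd1 encodes an RNA-binding protein whose loss leads to germ cell death and testicular teratomas in mice. KO EpiLC had 19.9, 22.4 and 8.33 CPM, against 10.5, 5.68 and 12.8 CPM in WT EpiLC. In day 3 PGCLC Dnd1 was at 23.9, 40.7 and 21.2 CPM in KO, against 24.6, 22.8 and 24.8 CPM in WT, and at day 5 at 15.9, 24.5 and 18 CPM in KO, against 13.9, 16.4 and 16.4 CPM in WT. The groups overlapped at all stages, with line B1 highest and line A2 lowest or between the others.

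No KO difference in Dnd1 passed (EpiLC 0.81 ± 0.35, adjusted p = 0.136; day 3 0.24 ± 0.32, adjusted p = 0.695; day 5 0.33 ± 0.33, adjusted p = 0.533), although the EpiLC difference passed without line A2 (1.13, adjusted p = 0.0126). Dnd1 had the smallest rise to day 3 of the 6 genes, 1.32 ± 0.34 in WT (24.1 ± 1.11 CPM at day 3 and 9.65 ± 3.62 CPM in EpiLC, adjusted p = 0.00371) and 0.75 ± 0.32 in KO (28.6 ± 10.6 and 16.9 ± 7.52 CPM). It shares 140 exon bases with Wdr55 on the opposite strand. The library kit keeps strand, but how the counting treated strand is not given in the labels, so Dnd1 counts may hold reads of Wdr55. Wdr55 fell from EpiLC to day 3 in KO (-0.55 ± 0.10, adjusted p = 0.000635) and in WT (-0.95 ± 0.10, adjusted p = 1.78e-06), the opposite direction to Dnd1.

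Kit encodes the receptor for SCF, which was part of the PGCLC medium in both genotypes. KO EpiLC had 19.2, 18.7 and 9.52 CPM, against 24.6, 18 and 19.0 CPM in WT EpiLC. In PGCLC of day 3 Kit was at 114.5, 183.9 and 85.4 CPM in KO, against 247.0, 228.6 and 245.0 CPM in WT. In PGCLC of day 5 it was at 92.0, 197.8 and 82.2 CPM in KO, against 226.9, 227.7 and 221.5 CPM in WT. Every KO PGCLC library was below every WT library of its day, and the KO lines kept the order B1, A5, A2 on both days. Line B1 had 76.6% and 87.8% of the WT mean at day 3 and day 5, A5 47.7% and 40.8%, and A2 35.6% and 36.5%.

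The Kit difference missed the threshold at day 3 (127.9 ± 50.6 CPM in KO and 240.2 ± 10.1 CPM in WT, -0.92 ± 0.30, adjusted p = 0.0644) and at day 5 (124.0 ± 64.1 and 225.4 ± 3.40 CPM, -0.86 ± 0.30, adjusted p = 0.0591). It passed on both days with DESeq2 and without the KO B1 library of that day, on day 3 in a fit of the day 3 groups alone, and on day 5 with limma-trend (lowest adjusted p 0.0265 on day 3 and 0.00277 on day 5). In EpiLC the difference was -0.38 ± 0.38 (adjusted p = 0.533). Kit rose from EpiLC to day 3 in KO (3.01 ± 0.35, adjusted p = 1.02e-05) and in WT (3.54 ± 0.35, adjusted p = 7.52e-07), and the change from day 3 to day 5 was -0.04 ± 0.30 in KO and -0.09 ± 0.29 in WT (adjusted p = 0.983 and 0.941).

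**Figure D3:**
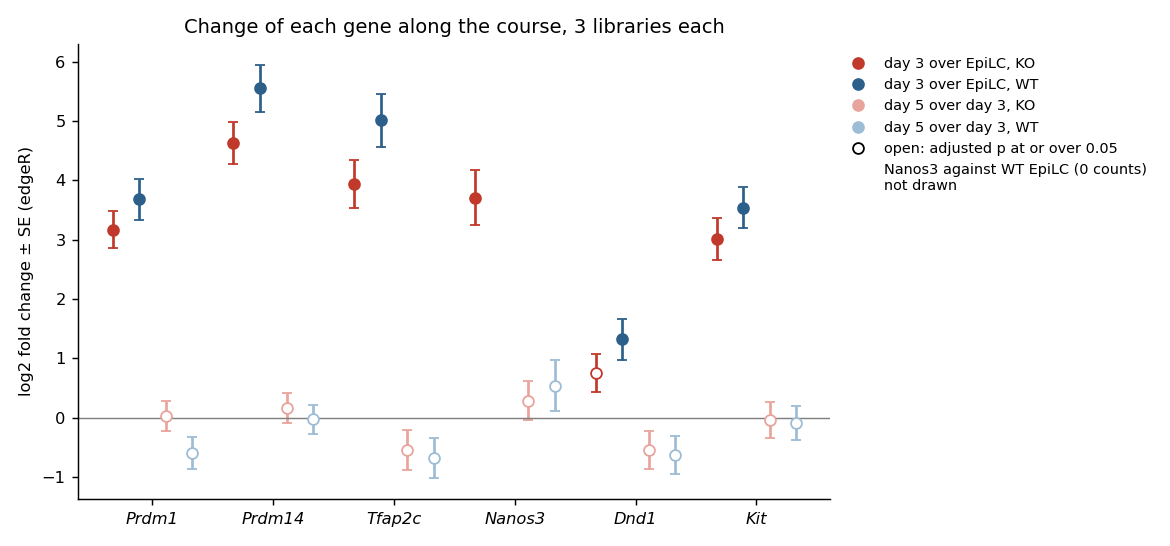
Log2 fold change of each gene from EpiLC to day 3 and from day 3 to day 5 (± SE, edgeR, n = 3 against 3) in KO and in WT; filled points passed an adjusted p of 0.05. The rise to day 3 runs from 0.75 for Dnd1 in KO to 5.55 for Prdm14 in WT, and none of the changes to day 5 passed; Nanos3 of WT is left out of the first step because WT EpiLC held no counts.

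Per kilobase of exon, which allows genes to be compared, Tfap2c had the highest level of the 6 in PGCLC (68.2 ± 10.3 CPM per kb in KO and 84.3 ± 1.93 in WT at day 3; 46.7 ± 5.87 in KO and 52.6 ± 0.312 in WT at day 5). In WT at day 3 Kit (27.0 ± 1.13 CPM per kb) and Prdm14 (25.6 ± 1.52) followed and did not differ beyond their spread, then came Dnd1 (9.98 ± 0.46), Prdm1 (7.53 ± 1.21) and Nanos3 (2.14 ± 0.635). In KO at day 3 Prdm14 (25.7 ± 1.21 CPM per kb) came after Tfap2c, and Kit (14.4 ± 5.68), Dnd1 (11.8 ± 4.39), Nanos3 (11.7 ± 3.34) and Prdm1 (11.5 ± 2.47) did not differ beyond their spread. At day 5 Nanos3 stood at 14.4 ± 6.02 CPM per kb in KO and 3.1 ± 0.142 in WT, above Dnd1 in KO (8.08 ± 1.86) and below it in WT (6.45 ± 0.611). In EpiLC Dnd1 was first in both genotypes (7.0 ± 3.12 CPM per kb in KO and 4.0 ± 1.50 in WT). Tfap2c followed at 4.42 ± 4.52 in KO and 2.61 ± 0.46 in WT, and its SD range overlapped that of Dnd1 in both. Nanos3 was last (0.877 ± 0.551 in KO and 0 in WT), in KO within the spread of Prdm14 (1.02 ± 0.94) and Prdm1 (1.27 ± 0.931). Exon lengths came from GENCODE M21 and take in every exon of a gene.

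Across the 18 libraries, which share 3 stages and 2 genotypes, Pearson's r of log2 CPM was highest between Prdm14 and Tfap2c (0.985) and between Prdm1 and Prdm14 (0.956). Nanos3 followed Prdm1 (0.909) more closely than Kit (0.618), and Dnd1 reached at most 0.614, with Prdm1. These values mainly follow the step between EpiLC and PGCLC. Of 10099 other genes, those most like Prdm1 were A4galt (0.983), Plcb3 (0.982) and Sigirr (0.981), and those most like Prdm14 included Slc2a3 (0.993) and Nr5a2 (0.992). Tfap2c was most like Sec14l1 (0.994), Slc2a3 (0.989) and Bcl3 (0.986). For Kit they were Tmem20 (0.985), Ly6g6e (0.981) and Ttyh2 (0.980), for Nanos3 Znfx1 (0.964), Rab3gap2 (0.961) and Zfyve26 (0.956), and for Dnd1 Slc38a3 (0.882), Topbp1 (0.872) and Kif14 (0.864). Which genes come first depends on line A2. Without it A4galt ranked 15th, Plcb3 7th and Sigirr 30th for Prdm1, Tmem20 20th for Kit and Zfyve26 29th for Nanos3. Slc2a3 for Prdm14 and Sec14l1 for Tfap2c ranked 1st. Znfx1 had the pattern of Nanos3 also by genotype, with 123.3 CPM in KO and 65.5 CPM in WT at day 3. Ly6g6e had that of Kit, with 13.4 CPM in KO and 42.9 CPM in WT at day 3.

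Upstream of these factors, BMP signalling reads out through the Id genes, and WNT signalling through Lef1. Of 17 tested genes of BMP and WNT induction, 4 were higher and 0 lower in KO at day 3, and 7 were higher and 1 lower at day 5 (4 and 4, and 7 and 2, of 18 without line A2). The list's median was 0.17 and 0.15, against 0.01 over all tested genes. In EpiLC 6 of 17 were higher and 0 lower in KO (3 and 1 of 18 without line A2), with a median of 0.37. Id1 was among them (1.83 ± 0.52, adjusted p = 0.0358), a call lost in 7 of 12 alternatives. For this list and those below, the shares of all tested genes higher and lower in KO were 6.93% and 4.15% in EpiLC. They were 5% and 5.18% at day 3 and 9.83% and 7.62% at day 5. Id1 averaged 175.9 ± 41.9 CPM in KO and 39.9 ± 1.48 CPM in WT at day 3 (2.14 ± 0.30, adjusted p = 0.000345), and was higher at day 5 as well (2.02 ± 0.30, adjusted p = 0.000307). Lef1 averaged 37.2 ± 8.46 CPM in KO and 6.48 ± 0.941 CPM in WT at day 3 (2.51 ± 0.30, adjusted p = 7.01e-05), and 49.7 ± 20.8 and 4.15 ± 0.424 CPM at day 5 (3.58 ± 0.31, adjusted p = 2.12e-06). Id3 was higher on both days (1.47 ± 0.33 and 1.63 at day 5), a call lost at day 3 without WT 2 (adjusted p = 0.0568). The ligand gene Bmp4 was lower in KO at day 5 (8.86 ± 5.75 CPM in KO and 50.9 ± 4.81 CPM in WT, -2.53 ± 0.69, adjusted p = 0.0205). That call was lost on leaving out WT 1 or KO A2, with an adjusted p of up to 0.0885. From EpiLC to day 3, 6 of 17 rose and 4 fell in KO and 8 rose and 2 fell in WT. For this list and those below, the shares of all tested genes that rose and fell at this step were 20.6% and 21.4% in KO. In WT they were 29% and 28.5%. Id1 was up by 4.31 ± 0.36 in KO and 3.99 ± 0.44 in WT, and Smad6, an inhibitor of the pathway, by 2.13 ± 0.27 and 2.46 ± 0.27. Lef1 fell at that step in both, with -0.90 ± 0.25 in KO (lost in a fit of the KO groups alone, adjusted p = 0.0552) and -3.71 ± 0.29 in WT.

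Proteins that work with PRDM1 and PRDM14 include the methyltransferase PRMT5 with its cofactor WDR77, the corepressor CBFA2T2 and Polycomb. Of 9 tested genes of this kind, 5 rose and 1 fell from EpiLC to day 3 in KO, and 5 rose and 2 fell in WT. Cbfa2t2 rose in KO (1.15 ± 0.11, adjusted p = 1.24e-06) and in WT (1.47 ± 0.11, adjusted p = 3.85e-08), as did Suz12 (1.23 ± 0.25 and 1.52 ± 0.25) and Ezh2 (0.68 ± 0.08 and 0.73 ± 0.08), while Wdr77 fell (-0.39 ± 0.09, lost in a fit of the KO groups alone with an adjusted p of 0.0797, and -0.70 ± 0.09). The list's median was 0.54 in KO and 0.31 in WT, against -0.03 and 0.00 over all tested genes. Between genotypes 1 of 9 passed at day 3 (2 higher and 2 lower without line A2). This was Ezh2, the Polycomb methyltransferase gene, at 301.2 ± 19.4 CPM in KO and 367.7 ± 12.4 CPM in WT (-0.29 ± 0.08, adjusted p = 0.0313, lost without WT 1, WT 2, WT 3, KO A5 or KO A2). Of the 8 tested other members of the PRDM family, 1 was lower and 0 higher in KO at day 3 (median -0.18). This was Prdm16, a transcription factor gene, at 3.38 ± 1.26 CPM in KO and 23.6 ± 3.09 CPM in WT (-2.75 ± 0.26, adjusted p = 1.30e-05), and at 5.10 ± 0.686 and 27.2 ± 2.28 CPM at day 5 (-2.41 ± 0.25, adjusted p = 9.47e-06). Of the AP-2 family beside Tfap2c only Tfap2a, also a trophoblast marker, had counts enough to be tested. It was at 5.35 ± 3.00 CPM in KO and 0.987 ± 0.333 CPM in WT at day 5 (2.42 ± 0.78, adjusted p = 0.0427), a call lost without WT 1, WT 2, WT 3, KO A5 or KO A2 and without the filter on low counts (adjusted p up to 0.189).

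Of 10 genes listed as lowered with PRDM14, 0 rose and 5 fell from EpiLC to day 3 in KO, with a median of -1.32. In WT 1 rose and 7 fell, with a median of -1.96 (without line A2, 1 and 7 in KO and 2 and 7 in WT). The gene that rose in WT was the FGF receptor gene Fgfr2 (0.37 ± 0.14, adjusted p = 0.027). Fgf5, Otx2, Pou3f1, Dnmt3b and Dnmt3a on this list are also among the formative epiblast markers. Pou3f1, an epiblast factor, fell (log2 fold change -5.21 ± 0.37 in KO and -5.86 ± 0.37 in WT), as did the growth factor gene Fgf5 (-4.01 ± 0.51 and -5.64 ± 0.49) and the DNA methyltransferase gene Dnmt3b (-2.63 ± 0.32 and -4.09 ± 0.34). Dnmt3a was lower in KO EpiLC (883.8 ± 96.8 CPM in KO and 1426 ± 30.3 CPM in WT, -0.69 ± 0.15, adjusted p = 0.0144, a call lost without WT 1, WT 2 or WT 3 and in a fit of the EpiLC groups alone) and higher in KO PGCLC, with 152.1 ± 40.8 CPM in KO and 88.9 ± 3.88 CPM in WT at day 3 (0.78 ± 0.16, adjusted p = 0.00554). Of 12 mesoderm and other genes repressed in nascent germ cells, where PRDM1 is the repressor, 5 had counts enough to be tested. On day 3, 1 was higher and 0 lower in KO (Lhx1, 2.80 ± 1.51 CPM in KO and 0.0805 ± 0.139 CPM in WT). On day 5 a different gene was higher and 0 were lower (Snai1, 4.50 ± 3.58 and 1.06 ± 0.297 CPM). The medians were 1.07 and -0.24.

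RNA regulation by NANOS proteins runs through PUM and the CCR4-NOT deadenylase, and DND1 and LIN28 act on microRNA targets or precursors. Of 14 tested genes of this group, 3 were higher and 0 lower in KO at day 3, and 3 higher and 1 lower at day 5 (4 and 0, and 4 and 2, without line A2), with medians of 0.12 and 0.05. Lin28b was at 49.7 ± 4.50 CPM in KO and 20.2 ± 2.21 CPM in WT at day 3 (1.30 ± 0.23, adjusted p = 0.00187). Lin28a was at 420.9 ± 59.6 and 233.3 ± 9.47 CPM (0.85 ± 0.20, adjusted p = 0.0133, lost without WT 2 or KO A2), and at 333.8 ± 104.1 and 129.6 ± 1.75 CPM at day 5 (1.36 ± 0.20, adjusted p = 0.000298). Cnot2, a subunit of CCR4-NOT, was higher by 0.52 ± 0.08 and 0.53 ± 0.08 (adjusted p = 0.000966 and 0.000440). Dazl, an RNA-binding gene of later germ cells, was lower in KO at day 5 (51.6 ± 16.9 CPM in KO and 90.8 ± 12.6 CPM in WT, -0.82 ± 0.26, adjusted p = 0.0397, lost without WT 1, WT 2, WT 3, KO A5 or KO A2). It rose from day 3 to day 5 by 1.43 ± 0.28 in KO and 1.46 ± 0.27 in WT (adjusted p = 0.0416 and 0.0234), calls that were lost in KO on leaving out any of 4 single libraries (B1 or A2 of day 3, A5 or B1 of day 5; adjusted p up to 0.366) and in WT on leaving out any of 6 (up to 0.143).

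Around KIT, the gene of its ligand, Kitl, was at 20.8 ± 5.75 CPM in KO EpiLC and 17.9 ± 4.36 CPM in WT EpiLC, and fell on the way to day 3 in KO (-3.03 ± 0.40, adjusted p = 2.54e-05) and in WT (-1.10 ± 0.34, adjusted p = 0.0120, lost without the EpiLC library WT 3, adjusted p = 0.0677). At day 3 it was at 2.40 ± 1.69 CPM in KO and 8.33 ± 0.567 CPM in WT (-1.71 ± 0.42, adjusted p = 0.0154, lost without WT 2, KO B1 or KO A2, adjusted p up to 0.0778). At day 5 Kitl was at 4.56 ± 2.53 CPM in KO and 5.65 ± 0.677 CPM in WT, and the groups overlapped. It was the only 1 of 16 genes of KIT signalling to pass between genotypes at day 3, while 2 were higher and 0 lower at day 5 (4 higher and 1 lower, and 5 and 2, without line A2), with medians of 0.16 and 0.10. From EpiLC to day 3, 7 of 16 rose and 2 fell in KO and 9 rose and 1 fell in WT. Of all tested genes, 20.6% rose and 21.4% fell in KO, and 29% rose and 28.5% fell in WT. Mitf, a transcription factor gene downstream of KIT in pigment cells, rose by 1.95 ± 0.38 and 2.75 ± 0.39. Stat5a rose by 2.21 ± 0.38 and 1.96 ± 0.39, and the phosphatase gene Ptpn6, a negative regulator of KIT, by 1.88 ± 0.21 and 1.72 ± 0.21.

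**Figure D4:**
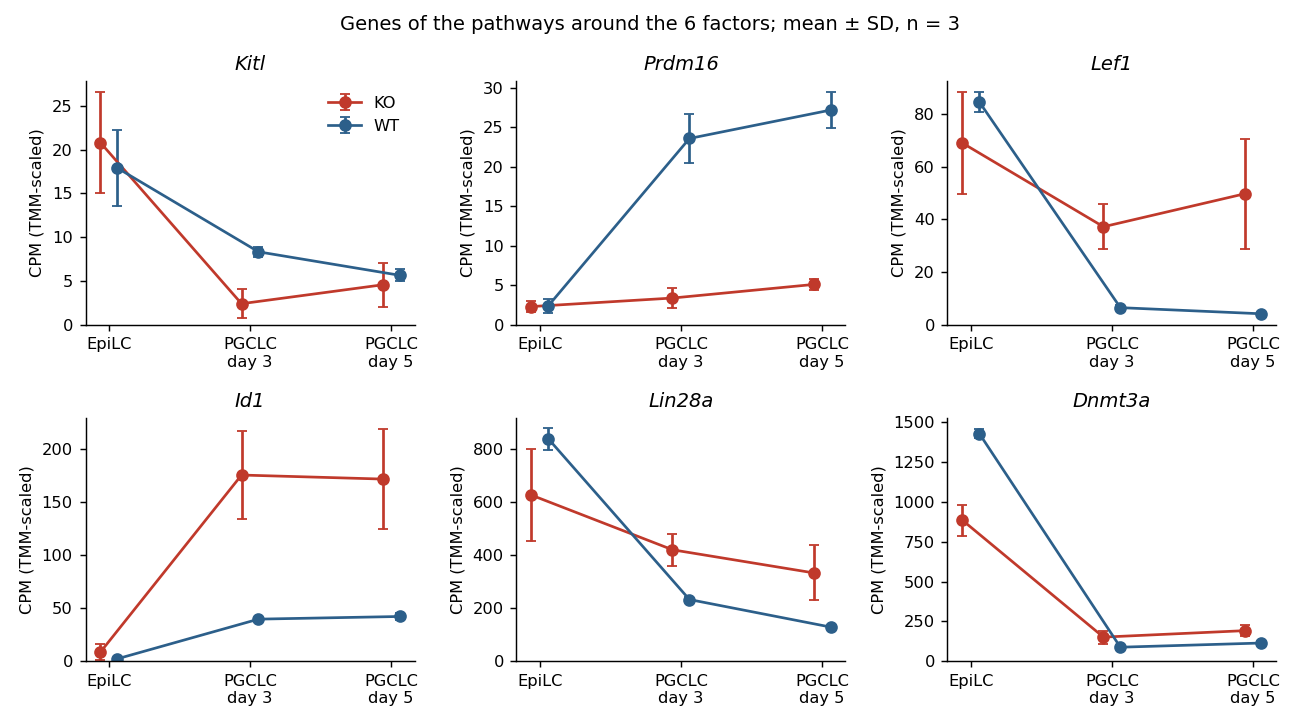
Mean CPM (± SD, n = 3) of 6 genes of the pathways around the factors in EpiLC, at day 3 and at day 5, KO in red and WT in blue. Prdm16 stays at 3.38 and 5.10 CPM in KO against 23.6 and 27.2 CPM in WT, while Lef1, Id1, Lin28a and Dnmt3a are higher in KO PGCLC.

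Most other genes of the early germ cell rose at the first step too. Of 22 tested, 15 rose and 1 fell from EpiLC to day 3 in KO (18 and 1 without line A2), and 16 rose and 2 fell in WT, with medians of 1.30 in KO and 2.54 in WT. Nanog, a core pluripotency factor, rose by 3.90 ± 0.39 and 4.88 ± 0.41. These counts include Dppa3, which rose in both genotypes and which the sort gate itself reads. Between genotypes 2 were higher and 2 lower in KO at day 3 (3 and 5 without line A2), and 5 higher and 1 lower at day 5 (6 and 5 without line A2). Ifitm3, a surface protein gene of nascent germ cells, was at 297.9 ± 40.5 CPM in KO and 109.6 ± 3.03 CPM in WT at day 5 (1.44 ± 0.21, adjusted p = 0.000219), though near-identical Ifitm copies may share reads. Tcl1 was lower in KO at day 5 (15.1 ± 5.67 and 40.3 ± 4.63 CPM, -1.41 ± 0.24, adjusted p = 0.000779). Of 10 tested genes of later germ cells, 1 was higher and 0 lower at day 3 and 1 higher and 1 lower at day 5, the higher one being Rnf17, a piRNA pathway gene (0.38 ± 0.08 and 0.50 ± 0.08).

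The sorted cells were checked for other cell types. Kit also marks blood progenitors, and of 8 blood and endothelium markers Ptprc and Hbb-bh1 were at 0 in all 12 PGCLC libraries. The whole list summed to 155.4 to 321.9 CPM in KO and 214.8 to 240.7 CPM in WT at day 3, and to 238.9 to 415.8 and 288.3 to 313.0 CPM at day 5. Of 8, 3 to 6 were detected in KO and 4 to 5 in WT. Most of that sum was Pecam1, at 261.2 ± 94.1 CPM in KO and 223.0 ± 14.9 CPM in WT at day 3. Gata1 was lower in KO at day 3 (0.948 ± 0.165 CPM in KO and 5.19 ± 0.668 CPM in WT, -2.41 ± 0.64, adjusted p = 0.0249) and at day 5 (-1.89 ± 0.55, adjusted p = 0.0262). Both Gata1 calls were lost on leaving out WT 1, WT 2, WT 3, KO A5 or KO A2 of that day, and at day 3 also KO B1 (adjusted p up to 0.0925 at day 3 and 0.106 at day 5). Formative epiblast markers summed to 385.1 to 573.1 CPM in KO and 349.3 to 380.5 CPM in WT at day 3, and to 441.4 to 617.7 and 362.5 to 406.6 CPM at day 5. All 7 were detected in KO and 6 to 7 in WT. Mesoderm markers summed to 29.8 to 59.1 CPM in KO and 21.7 to 22.7 CPM in WT at day 3, and to 27.8 to 34.4 and 29.9 to 37.9 CPM at day 5. Of 8, 5 to 8 were detected in KO and 5 to 7 in WT. Trophoblast markers summed to 136.9 to 328.5 CPM in KO and 82.3 to 120.2 CPM in WT at day 3, and to 94.3 to 133.1 and 73.4 to 107.0 CPM at day 5. Of 10, 9 to 10 were detected in KO and 8 to 10 in WT on both days. Fibroblast and mesenchyme markers summed to 28.0 to 44.3 CPM in KO and 16.9 to 21.4 CPM in WT at day 3, and to 24.5 to 95.2 and 7.44 to 11.1 CPM at day 5. Of 8, 5 to 6 were detected in KO and 3 to 4 in WT, with Dcn and Lum at 0 in all 12. The 8 markers of naive pluripotent cells, Esrrb among them, summed to 1440 to 1588 CPM in KO and 2779 to 2905 CPM in WT at day 3, and to 1391 to 2032 and 2581 to 2706 CPM at day 5. Their part in the KO differences of Nanos3, Prdm1 and Kit was not tested.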

How the data were processed

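The deposited files hold raw counts, 1 file a library with Ensembl gene IDs, and 1 table of CPM made by the authors. Recomputing CPM from counts and totals gave the deposited CPM (tolerance 1e-06). The submitters' processing notes name Trim Galore (0.4.3.1) for trimming and the builds mm10 and GRCm38.p4. Aligner, counter, annotation and strandedness: not given in the sources used here. Of 25965 rows, 56 without a gene ID (0.0559% to 0.0828% of counts) were left out. Text attached to 23 IDs was removed. Of 25909 IDs, 25012 matched GENCODE M21.

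Counts were fitted in R 4.3.3 with edgeR 4.0.16 (filterByExpr, TMM factors 0.964 to 1.04, 1 mean per group, robust quasi-likelihood, common dispersion 0.0283, median prior df 4.37). Benjamini-Hochberg adjustment was within each of 9 comparisons. The fit was tested on simulated data. The 6 genes passed the filter, Nanos3 through its PGCLC counts. Counting intervals cover counting error only, and the floor of 3 counts covers that of the group at 0 counts alone.

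Alternatives were RLE, no filter, DESeq2 1.42.0, limma-trend (limma 3.58.1) on log2 of deposited CPM plus 1, omission of the groups outside a comparison, of each library in turn or of line A2, a block for replicate names, and values set against the chromosome median. List counts without line A2 were added after seeing the data. The block was checked by correlating deviations from group means: KO line names paired libraries across stages (0.11 to 0.588), WT numbers did not (-0.0479 to 0.0659).

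Members, gene lists and alternatives were chosen with earlier results of these data known. Besides the 6 genes and Esrrb, list genes named are called genes, up to 4 with the largest change in each direction per list and comparison, and like genes are the 3 highest by Pearson's r (mean of at least 5 CPM). 1 of the like genes is not reported here. Wdr55 was named for its overlap with Dnd1. Lists lack members that the deposited table does not hold under those symbols.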

Additional observations from a re-analysis of the deposited data

Results flagged for a closer look

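Of the list genes named above, 9 had a KO effect that differed between EpiLC and day 3 by the interaction term of the edgeR fit (n = 3 in each of 4 groups); none of the 6 factors did, and other list genes also passed. Lef1 (2.81, adjusted p = 0.000780), Lin28b (1.48, adjusted p = 0.0111), Dnmt3a (1.47, adjusted p = 0.00140), Lin28a (1.27, adjusted p = 0.0161) and Ifitm1 (1.22, adjusted p = 0.00924) had a higher log2 KO effect at day 3 than in EpiLC, and Prdm16 (-2.70, adjusted p = 0.00253) a lower one, and each of these 6 passed in every alternative tried. Kitl (-1.93, adjusted p = 0.0405), Cnot2 (0.48, adjusted p = 0.0250) and Prmt5 (0.44, adjusted p = 0.0335) passed as well, but each lost the call in 8 to 12 of 19 alternatives (adjusted p up to 0.0980, 0.0742 and 0.0879).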

How the results depend on the processing

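Of 54 member results (6 genes in 9 comparisons), 15 passed, and 14 of these passed in every alternative in which the gene was tested; the exception was Nanos3 in EpiLC. Of the 39 that did not pass, 12 passed in some alternative. Of 6 genes, 1 passed between KO and WT EpiLC, with 2 under DESeq2, 0 with limma-trend, 0 with only the groups compared (where Nanos3 and Prdm14 did not pass the filter on low counts and were not tested) and 0 to 3 leaving out 1 library. At day 3, 1 passed, with 2 under DESeq2, with only the groups compared and without line A2, and 1 to 2 leaving out 1 library. For day 5 against day 3, 0 passed, with 1 in KO without line A2, and in WT 3 with only the groups compared and 2 without line A2. For the KO effect on the step to day 3, 0 passed, with 0 to 1 leaving out 1 library (1 without the EpiLC library of KO B1). With the replicate block 6, 6, 0 and 0 genes passed in the steps of KO and WT and 0 in both interactions; only Dnd1 in KO changed its call, and WT numbers did not pair libraries.

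Uncalled values changed sign as follows. Without line A2 these were Prdm14 (-0.05) and Tfap2c (-0.48) in KO against WT EpiLC, Prdm1 from day 3 to day 5 in KO (-0.16), the KO effect on the step to day 3 of Prdm1 (0.45), Prdm14 (0.04) and Tfap2c (0.27), and that on the step to day 5 of Nanos3 (0.09). With limma-trend the KO effect on the step to day 3 of Nanos3 was 1.16. Leaving out 1 library, KO against WT ran from -0.05 to 1.39 for Prdm14 and -0.48 to 1.21 for Tfap2c in EpiLC, from -0.09 to 0.41 for Dnd1 at day 3 and from -0.08 to 0.40 for Prdm14 at day 5. Day 5 against day 3 in KO ran from -0.14 to 0.16 for Prdm1, -0.11 to 0.37 for Prdm14, -0.10 to 0.53 for Nanos3 and -0.55 to 0.31 for Kit. The KO effect on the step to day 3 ran from -0.79 to 0.29 for Prdm1, -1.39 to 0.05 for Prdm14 and -1.51 to 0.18 for Tfap2c, and that on the step to day 5 from -0.08 to 0.40 for Prdm14, -0.11 to 0.42 for Dnd1 and -0.46 to 0.40 for Kit.

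Counts over all genes moved by over 1.5 times as follows (leaving out 1 library as a range). KO against WT had 1424 genes in EpiLC (0 with only the groups compared, 181 to 2473), 1309 at day 3 (2716 without line A2, 621 to 1463) and 2244 at day 5 (3887 without line A2, 1303 to 2189). The step to day 3 in KO had 5394 (2161 with only the groups compared). Day 5 against day 3 had 71 in KO (46 without the filter, 172 with DESeq2, 0 with only the groups compared, 873 without line A2, 216 with the replicate block, 9 to 74) and 99 in WT (334, 3678, 2016 and 387 with DESeq2, only the groups compared, without line A2 and with the block, 66 without the filter, 10 to 18). The KO effect on the step to day 3 had 847 (456 with only the groups compared, 1912 without line A2, 1457 with the block, 361 to 1527), and that on the step to day 5 had 0 (11 with DESeq2, 5 with only the groups compared, 85 without line A2). Depth limits Nanos3 in WT (0 to 15 counts a library) and Prdm14 in EpiLC (2 to 22 counts). The cause of these changes was not tested.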
